A study of Homo sapiens with 12 samples.

Results

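The human mitochondrial chromosome carries 37 genes, and all 37 were found in the deposited expression table of 60671 genes as the entries whose symbol starts with MT-. They comprised 13 mRNAs, 22 tRNAs and 2 rRNAs. Annotation in GENCODE release 29 (GRCh38) places 28 of them on the plus strand and 9 on the minus strand, the latter being MT-ND6 and the tRNA genes MT-TQ, MT-TA, MT-TN, MT-TC, MT-TY, MT-TS1, MT-TE and MT-TP. RNA was sequenced from cells labelled Jurkat, a T cell acute lymphoblastic leukemia line, in 4 groups of 3 libraries. NC cells, whose genotype the labels give as WT, carried the control GFP vector, and PTPN21 cells carried a lentiviral FLAG-tagged PTPN21, a protein tyrosine phosphatase, driven by the viral SFFV promoter. Both were incubated for 48 h with DMSO (NC+DMSO and PTPN21+DMSO) or with vincristine, an inhibitor of microtubule assembly (NC+VCR and PTPN21+VCR). The vincristine dose for sequencing is not given in the sources used here, and the study's methods give 3 replicates a group, with a general statement that experiments were repeated, but do not say that the 3 sequenced libraries of a group came from separate cultures. Thus the p-values measure the spread between libraries, which may be technical. The comparisons address how vincristine and PTPN21 overexpression change the transcriptome.

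Mitochondrial DNA is transcribed from both strands into long precursors by the polymerase POLRMT with the factors TFAM and TFB2M. Most mRNAs and both rRNAs are flanked by tRNAs, which RNase P and RNase Z (ELAC2) cut out to release the RNAs between them, and MTPAP then adds short poly(A) tails to most mRNAs. The mRNAs encode core subunits of respiratory complexes I, III and IV and of ATP synthase, and the rRNAs and tRNAs serve the ribosomes inside the organelle that translate these mRNAs. Because the RNAs of a strand share a precursor, their relative levels are set largely by processing and stability.

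The values are FPKM, fragments scaled to gene length and library total, summed from 520098 to 629364 per library, and carry no depth. In an estimate from the step in which low values of single-exon genes fall, NC libraries held 28500000 to 36000000 steps and PTPN21 libraries 40900000 to 48400000, so that every PTPN21 library was the deeper. Whether a step stands for 1 read or 2 was not resolved. On a tRNA gene 1 step would be worth 0.28 to 0.59 FPKM, but of 264 tRNA values 4 were at 0 and 10 lay above 0 and under 1 step, down to 0.006056 FPKM for MT-TL2 in NC+DMSO replicate 1. The tRNA values were therefore not whole steps, and the depth behind a low tRNA value is not known. PTPN21 itself was at or under 0.569 FPKM in all 6 NC libraries and between 4.34 and 10.5 FPKM in the 6 PTPN21 libraries. The defining T cell markers were largely absent. CD247, CD28 and LCK were at 0 in all 12 libraries, and 2 of 13 T cell leukemia markers, CD3D and TAL1, were at 1 FPKM or more in all of them. Of 4 epithelial markers, CDH1 was at 0 to 1.83 FPKM, while EPCAM was at 58.3 to 123, KRT8 at 236 to 1190 and KRT18 at 91.9 to 437. The sum of the 4 was 388.4 to 589 FPKM in NC+DMSO, 1153 to 1359 in NC+VCR, 510.2 to 579.4 in PTPN21+DMSO and 1203 to 1676 in PTPN21+VCR. This sum was higher in every vincristine library than in any DMSO library, and its part in the differences of the members was not tested. Of 5 myeloid markers, CD33 was at 20.5 to 44.4 FPKM and LYZ at 9.08 to 17. The others were low, with ITGAM at 0.948 to 3.39, CSF1R at 0 to 0.388 and CD14 at 0 to 0.0797. The erythroid genes GATA1 (13.5 to 106 FPKM), KLF1 (1.39 to 39.7), HBZ (35.5 to 368), HBG1 (188 to 709) and HBG2 (560 to 2990) were singled out after their values were seen. These levels and those of the T cell markers go against the label Jurkat, so the libraries are called here by their group labels, and which cells they came from was not tested.

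The tRNA genes on which the results below turn are shown first, as transcript sequences of GENCODE release 29 on GRCh38, 5′ to 3′ along their own strand, with the anticodon in capitals. The 8 minus-strand tRNAs are shown because 6 of them fell under vincristine in PTPN21 cells, and MT-TD, MT-TF and MT-TI because they are the plus-strand tRNAs that passed a test.
MT-TQ (glutamine, chrM:4329-4400, minus strand): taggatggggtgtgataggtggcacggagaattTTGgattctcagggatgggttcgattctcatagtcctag
MT-TA (alanine, chrM:5587-5655, minus strand): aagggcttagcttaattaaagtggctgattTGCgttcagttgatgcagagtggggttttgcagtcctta
MT-TN (asparagine, chrM:5657-5729, minus strand): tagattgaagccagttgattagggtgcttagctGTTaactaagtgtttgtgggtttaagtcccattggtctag
MT-TC (cysteine, chrM:5761-5826, minus strand): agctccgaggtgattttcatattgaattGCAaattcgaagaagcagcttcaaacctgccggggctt
MT-TY (tyrosine, chrM:5826-5891, minus strand): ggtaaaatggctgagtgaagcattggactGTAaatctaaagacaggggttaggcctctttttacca
MT-TS1 (serine, chrM:7446-7514, minus strand): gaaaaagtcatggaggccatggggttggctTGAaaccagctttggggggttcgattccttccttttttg
MT-TE (glutamate, chrM:14674-14742, minus strand): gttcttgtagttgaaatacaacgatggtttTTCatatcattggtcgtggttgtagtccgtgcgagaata
MT-TP (proline, chrM:15956-16023, minus strand): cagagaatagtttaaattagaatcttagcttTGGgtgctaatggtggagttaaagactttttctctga
MT-TD (aspartate, chrM:7518-7585, plus strand): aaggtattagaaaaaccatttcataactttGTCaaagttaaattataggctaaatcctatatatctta
MT-TF (phenylalanine, chrM:577-647, plus strand): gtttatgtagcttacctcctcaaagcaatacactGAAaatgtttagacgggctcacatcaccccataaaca
MT-TI (isoleucine, chrM:4263-4331, plus strand): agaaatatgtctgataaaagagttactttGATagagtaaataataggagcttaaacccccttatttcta

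These 11 genes are 66 to 73 bases long. MT-TI and MT-TQ overlap by 3 bases on opposite strands, and MT-TC and MT-TY by 1 base on the same strand. MT-TA, MT-TN, MT-TC and MT-TY lie side by side between MT-ND2 and MT-CO1, MT-TE adjoins MT-ND6, and MT-TP ends the gene order. Whether reads were counted by strand is not given in the sources used here, so RNA of a minus-strand gene and plus-strand precursor running across it cannot be told apart. Likewise a tRNA value does not separate the finished tRNA from its precursor.

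The 37 genes took up a large share of all FPKM, and that share was lower in the vincristine groups. It was 11.4% to 11.7% in NC+DMSO, 6.21% to 7.03% in NC+VCR, 9.27% to 9.99% in PTPN21+DMSO and 6.47% to 7.89% in PTPN21+VCR. The mRNAs made up most of it, with 9.27% to 10.1%, 4.63% to 5.26%, 7.96% to 8.62% and 4.83% to 5.82% in the same order of groups. The rRNAs went the other way, at 1.01% to 1.29% and 0.946% to 1.1% with DMSO against 1.25% to 1.46% and 1.36% to 1.69% with vincristine. The tRNAs together were at 0.941% in NC+DMSO replicate 3 and at 0.275% to 0.426% in the other 11 libraries. Therefore the classes are described one by one, with every gene in one limma fit over the 11591 genes that had a mean FPKM of at least 1.

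**Figure D1:**
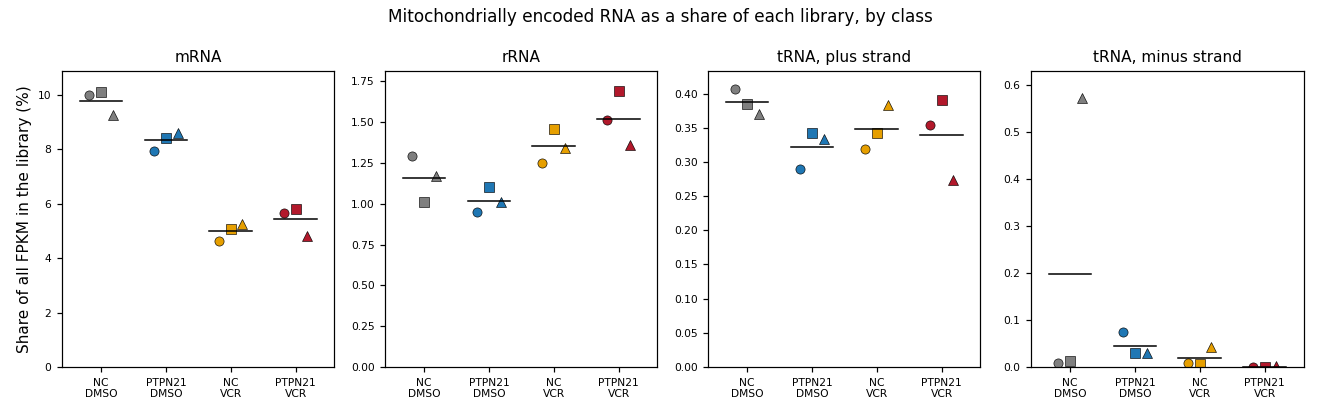
Share of all FPKM in a library (%, linear axes from 0) taken by the mRNAs, the rRNAs, the plus-strand tRNAs and the minus-strand tRNAs; each point is a library, its shape the replicate, and each line the mean of 3. The mRNA share was 9.27% to 10.1% in NC+DMSO and 4.63% to 5.26% in NC+VCR, and for the minus-strand tRNAs NC+DMSO replicate 3 stood at 0.571%, above all other libraries.

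On the scale of the deposited FPKM, vincristine lowered most mitochondrial mRNAs in both cell types. In NC cells 14 of the 37 members passed an adjusted p of 0.05, 2 higher and 12 lower, where 36.2% of all genes tested passed (7.91% higher and 28.3% lower). In PTPN21 cells 19 members passed, 2 higher and 17 lower, where 28.5% of all genes passed (9.22% higher and 19.3% lower). Among the mRNAs 11 of 13 fell in NC cells and 10 of 13 in PTPN21 cells, and none rose. Their median log2 fold change was -0.77 and -0.54, against -0.36 and -0.17 over all genes tested. By complex, 5 and 4 of the 7 complex I mRNAs fell in NC and PTPN21 cells, and in both cell types the complex III mRNA, all 3 complex IV mRNAs and both ATP synthase mRNAs did. These counts depend on the scaling, since with median ratio scaling, described below, 5 of the 13 mRNAs passed as lower in each cell type.

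MT-CYB, the cytochrome b of complex III, fell in both cell types. Its FPKM was 1995, 2198 and 1624 in NC+DMSO, 688.4, 734.5 and 763.8 in NC+VCR, 2116, 1957 and 2153 in PTPN21+DMSO and 838.7, 850.7 and 795.7 in PTPN21+VCR. All vincristine libraries lay below all DMSO libraries. Among all genes tested, 44.1% in NC cells and 50.4% in PTPN21 cells had no overlap between these groups. The log2 fold change on the FPKM + 1 scale was -1.40 ± 0.109 (SE, adjusted p = 5.03e-06) in NC cells and -1.32 ± 0.109 (adjusted p = 6.67e-06) in PTPN21 cells, and the difference between these changes, 0.08 ± 0.155, did not pass (adjusted p = 0.847).

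MT-ND2, a membrane subunit of complex I, was the most abundant member in the DMSO libraries. It stood at 11370, 13000 and 10430 FPKM in NC+DMSO, 4537, 5197 and 5148 in NC+VCR, 10440, 10030 and 11270 in PTPN21+DMSO and 4802, 4875 and 4310 in PTPN21+VCR. Again the vincristine libraries lay below every DMSO library, and the log2 fold change was -1.22 ± 0.104 (adjusted p = 1.02e-05) in NC cells and -1.18 ± 0.104 (adjusted p = 1.15e-05) in PTPN21 cells. MT-ATP6, the ATP synthase subunit that forms part of its proton channel, was at 6579 to 8410 FPKM in NC+DMSO and 6736 to 7054 in PTPN21+DMSO, against 4089 to 4462 in NC+VCR and 3496 to 4089 in PTPN21+VCR. It fell by 0.82 on the log2 scale (SE 0.104, adjusted p = 0.000143) in NC cells and by 0.84 (SE 0.104, adjusted p = 0.000149) in PTPN21 cells. MT-ATP8, which shares 46 bases with MT-ATP6, gave -0.76 in NC cells and -0.53 (adjusted p = 0.0257) in PTPN21 cells. The latter call passed in 16 of 24 alternatives (other settings or 1 library left out). It was lost without any 1 PTPN21+DMSO library and without PTPN21+VCR replicate 1 or 3.

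MT-CO3, a core subunit of complex IV (cytochrome c oxidase), also fell in both. Its values were 3664, 3743 and 2841 FPKM in NC+DMSO, 1320, 1295 and 1535 in NC+VCR, 3285, 3429 and 3580 in PTPN21+DMSO and 2460, 2355 and 2286 in PTPN21+VCR. All 3 PTPN21+VCR libraries lay between the DMSO libraries and the NC+VCR libraries. The log2 fold change under vincristine was -1.30 ± 0.114 (adjusted p = 1.22e-05) in NC cells and -0.54 ± 0.114 (adjusted p = 0.00455) in PTPN21 cells. The other complex IV mRNAs fell by less, MT-CO1 by 0.65 and MT-CO2 by 0.63 in NC cells, and by 0.34 and 0.40 in PTPN21 cells. In NC cells both passed in 23 of 24 alternatives, the exception being median ratio scaling. In PTPN21 cells the MT-CO1 call passed in 18 of 24 and was lost without PTPN21+DMSO replicate 2 or PTPN21+VCR replicate 3. The MT-CO2 call there passed in 16 of 24 and was lost without PTPN21+DMSO replicate 1 or 3 or any 1 PTPN21+VCR library.

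The remaining complex I mRNAs did not move alike. MT-ND3 was at 232.1, 257 and 261 FPKM in NC+DMSO and 89.13, 111.1 and 132.1 in NC+VCR, and at 186, 224.5 and 229.2 in PTPN21+DMSO and 142.8, 136.4 and 131.8 in PTPN21+VCR. The change was -1.18 ± 0.139 (adjusted p = 9.12e-05) and -0.63 ± 0.139 (adjusted p = 0.00569). MT-ND1 fell in both cell types, by 0.64 in NC cells and by 0.56 (SE 0.115, adjusted p = 0.00376) in PTPN21 cells.

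MT-ND4 and MT-ND4L, whose reading frames share 7 bases, passed in NC cells and not in PTPN21 cells. MT-ND4 was at 4287 to 4727 FPKM in NC+DMSO and 2217 to 2834 in NC+VCR, a log2 fold change of -0.85 ± 0.12 (adjusted p = 0.000322). In PTPN21 cells it was at 3486 to 3935 with DMSO and 2964 to 3813 with vincristine, which overlap, and the log2 fold change was -0.11 (adjusted p = 0.527). MT-ND4L gave -0.77 and 0.03. The change did not differ past the threshold between the cell types for either gene (interaction 0.74, adjusted p = 0.117, and 0.80, adjusted p = 0.217). MT-ND5, the last plus-strand complex I gene, passed in neither, at 232.1 to 263.4 FPKM in NC+VCR against 278.7 to 290.2 in NC+DMSO (log2 fold change -0.20, adjusted p = 0.234) and 249.7 to 362.7 in PTPN21+VCR against 255.2 to 283.6 in PTPN21+DMSO (0.21, adjusted p = 0.236).

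The size of the fall depended on how libraries were scaled. When libraries were scaled by the median ratio of all genes, the median change of all genes under vincristine in NC cells moved from -0.36 to -0.03 and that of the 13 mRNAs from -0.77 to -0.37, and 5 mRNAs passed as lower rather than 11. In PTPN21 cells this scaling left 5 mRNAs lower, and MT-ND5 passed as higher. MT-CYB, MT-ND2 and MT-ND3 passed as lower in both cell types in all 24 alternatives.

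**Figure D2:**
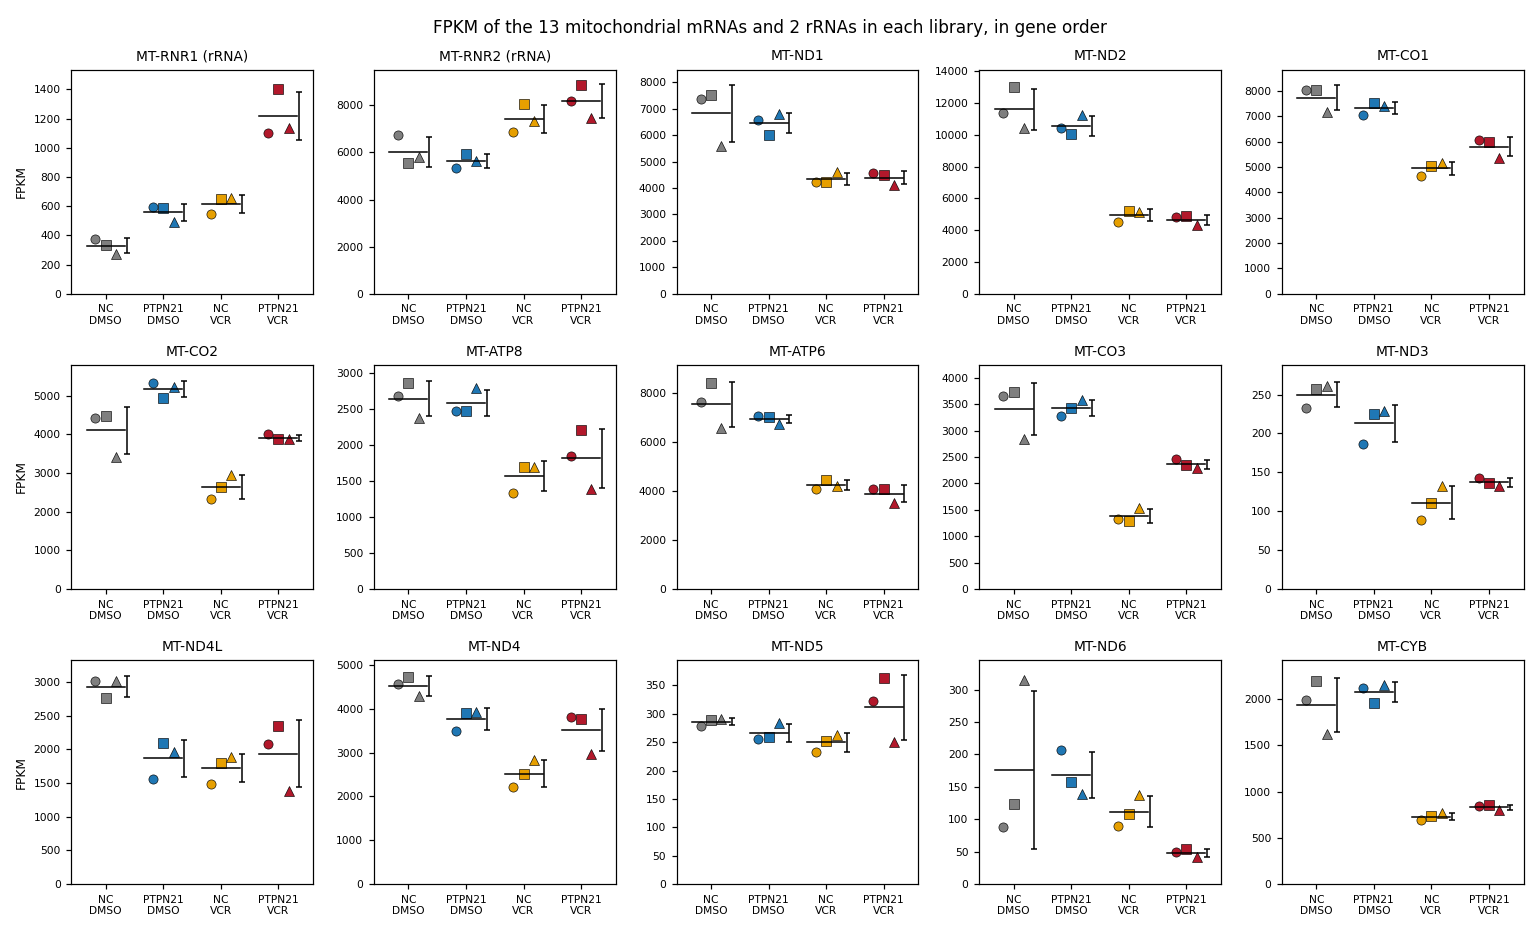
FPKM (linear axes from 0) of the 13 mRNAs and 2 rRNAs in each of the 12 libraries, in gene order; points are libraries, their shape the replicate, lines the mean of 3 and error bars the SD. MT-CYB lay at 688.4 to 850.7 FPKM in the 6 vincristine libraries and at 1624 to 2198 in the 6 DMSO libraries, while MT-RNR1 was lowest in NC+DMSO and highest in PTPN21+VCR.

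Both rRNAs moved against the mRNAs. MT-RNR1, the rRNA of the small ribosomal subunit, was at 376.2, 337 and 273.3 FPKM in NC+DMSO, 544.1, 646.5 and 656.7 in NC+VCR, 591.7, 589.1 and 490.3 in PTPN21+DMSO and 1104, 1406 and 1138 in PTPN21+VCR. The groups ran in the order NC+DMSO, then PTPN21+DMSO and NC+VCR, which overlapped, then PTPN21+VCR. Vincristine raised it by 0.91 ± 0.143 on the log2 scale (adjusted p = 0.000604) in NC cells and by 1.12 ± 0.143 (adjusted p = 0.000176) in PTPN21 cells, and both passed in all 24 alternatives.

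MT-RNR2, the rRNA of the large subunit, was the more abundant of the pair in every library. Its FPKM was 6759, 5555 and 5795 in NC+DMSO, 6847, 8034 and 7339 in NC+VCR, 5351, 5916 and 5653 in PTPN21+DMSO and 8194, 8870 and 7443 in PTPN21+VCR. It was higher with vincristine by 0.53 ± 0.105 (adjusted p = 0.00301) in PTPN21 cells, which held in all 24 alternatives, and by 0.30 ± 0.105 (adjusted p = 0.0441) in NC cells, which held in 9 of 24, with log2 fold changes from 0.08 to 0.70. The study's methods call the assay digital gene expression tag profiling, a name used for counting tags from poly(A) RNA, while the labels describe libraries built from total RNA and the values are scaled to gene length. Neither poly(A) selection nor rRNA depletion is named in the sources used here, and each would act on rRNA. Thus levels of the rRNAs relative to the mRNAs describe these libraries.

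Of the 14 plus-strand tRNAs, 1 passed under vincristine in each cell type, and it was MT-TD, the aspartate tRNA. It was at 109.1, 122.5 and 82.18 FPKM in NC+DMSO against 49.59, 42.07 and 54.93 in NC+VCR, and at 94, 68.9 and 103.9 in PTPN21+DMSO against 65.68, 58.75 and 54.38 in PTPN21+VCR. The groups did not overlap in either cell type, and the log2 fold change was -1.07 ± 0.183 (adjusted p = 0.00105) in NC cells and -0.55 ± 0.183 (adjusted p = 0.0405) in PTPN21 cells. The NC call passed in all 24 alternatives and the PTPN21 call in 13 of 24. The latter was lost with the replicate block, among other settings, and without NC+DMSO replicate 1, PTPN21+DMSO replicate 1 or 3, or any 1 PTPN21+VCR library.

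MT-TL1, the leucine tRNA that follows MT-RNR2, had the highest level of the tRNAs, at 1211 to 1794 FPKM over the 12 libraries, and did not differ beyond its spread under vincristine (log2 fold change 0.03 in NC cells and 0.24 in PTPN21 cells). Among the plus-strand tRNAs MT-TM and MT-TV came next, at 176.7 to 282.3 and 88.07 to 203.6 FPKM. Summed over the 14 genes, plus-strand tRNA was at 1926 to 2240 FPKM in NC+DMSO, 1883 to 2278 in NC+VCR, 1821 to 2034 in PTPN21+DMSO and 1721 to 2379 in PTPN21+VCR, ranges that overlap throughout. MT-TH, MT-TS2 and MT-TL2, which lie in a row between MT-ND4 and MT-ND5, were low, from 0 to 19 FPKM. All PTPN21+VCR values of each of these 3 lay below its PTPN21+DMSO values, with log2 fold changes of -1.95, -2.19 and -1.67 that did not pass (adjusted p = 0.0789, 0.0693 and 0.159).

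The minus-strand tRNAs varied widely between libraries of a group, and were near 0 in PTPN21+VCR. Without MT-TQ their summed FPKM was 37.85 to 2960 in NC+DMSO, 39.52 to 252.8 in NC+VCR, 172.5 to 462.4 in PTPN21+DMSO and 3.295 to 5.734 in PTPN21+VCR. In PTPN21 cells 6 of 8 fell under vincristine, where 19.3% of all genes did. In NC cells 0 of 8 passed in limma, 1 of them (MT-TC) at an unadjusted p under 0.05, where 46.4% of all genes had such a p. The median log2 fold change was -4.48 in PTPN21 cells and -1.09 in NC cells, and the interaction passed for none of the 8. MT-TP and MT-TS1 passed in PTPN21 cells in all 24 alternatives. MT-TN, MT-TC, MT-TY and MT-TE passed in 19, 17, 20 and 21 of 24. Each was lost with no filter on low values, without PTPN21+VCR replicate 2 and without PTPN21+DMSO replicate 1. This last library had the highest level of each in its group, and without it 12 members passed in place of 19. MT-TC was lost without any 1 PTPN21 library, MT-TN without any 1 PTPN21+VCR library, and MT-TY also without PTPN21+VCR replicate 1.

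MT-TC, the cysteine tRNA, was at 8.47, 18.9 and 942.5 FPKM in NC+DMSO, 0.227, 0.305 and 54.4 in NC+VCR, 103.1, 37.5 and 37.2 in PTPN21+DMSO and 0.585, 0.310 and 0.168 in PTPN21+VCR. NC+DMSO replicate 3 and NC+VCR replicate 3 stood far above the other libraries of their groups. In PTPN21 cells the groups did not overlap, and the log2 fold change was -5.32 ± 1.61 (adjusted p = 0.0275), the widest error among the named members. MT-TN, the asparagine tRNA next to it, was at 8.42, 17.9 and 662.4 FPKM in NC+DMSO, 6.93, 2.45 and 53.2 in NC+VCR, 87.3, 30.8 and 25.2 in PTPN21+DMSO and 0.649, 0.614 and 0.746 in PTPN21+VCR, with the same libraries high. It fell by 4.65 (SE 1.33, adjusted p = 0.0211) in PTPN21 cells.

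MT-TP, the proline tRNA at the end of the gene order, varied less within NC+VCR. Its FPKM was 2.56, 3.66 and 65.1 in NC+DMSO, 10.1, 13.3 and 12.2 in NC+VCR, 21.1, 13.7 and 17.0 in PTPN21+DMSO and 0.262, 0 and 0.961 in PTPN21+VCR. All 3 PTPN21+VCR libraries were thus below the other 9, and the fall under vincristine in PTPN21 cells was 3.74 on the log2 scale (SE 0.81, adjusted p = 0.00502). MT-TS1, a serine tRNA, was at 31.2 to 83.1 FPKM in PTPN21+DMSO and 0.459 to 1.76 in PTPN21+VCR and fell by 4.68 (SE 1.14, adjusted p = 0.00923).

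MT-TY, the tyrosine tRNA, fell by 4.64 (SE 1.25, adjusted p = 0.0161) and MT-TE, the glutamate tRNA, by 4.32 (SE 1.21, adjusted p = 0.0191). MT-TA, the alanine tRNA, was at 15.1 to 54.0 FPKM in PTPN21+DMSO and 0.761 to 2.42 in PTPN21+VCR, with a log2 fold change of -3.35 that did not pass (adjusted p = 0.0621). MT-TQ, the glutamine tRNA, did not share the pattern and lay between 0.805 and 8.71 FPKM in all 12 libraries. The PTPN21+VCR values of the 6 tRNAs that fell were 0 to 1.76 FPKM, and the depth behind them is not known. These fold changes therefore depend on the added 1 FPKM, and differences among these values cannot be read.

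MT-ND6, the one mRNA of the minus strand and a complex I subunit, followed the minus-strand tRNAs in part. It was at 88.7, 123.4 and 315.4 FPKM in NC+DMSO, 89.0, 108.7 and 136.6 in NC+VCR, 206.9, 158 and 139.1 in PTPN21+DMSO and 48.8, 54.4 and 41.6 in PTPN21+VCR. NC+DMSO replicate 3 was again the highest library, and the PTPN21+VCR libraries the lowest 3. It fell under vincristine in PTPN21 cells by 1.77 (SE 0.358, adjusted p = 0.00344) and did not pass in NC cells (log2 fold change -0.46, adjusted p = 0.333). MT-ND6 over MT-ND5, its neighbour on the other strand, was 0.318 to 1.09 in NC+DMSO, 0.383 to 0.518 in NC+VCR, 0.490 to 0.811 in PTPN21+DMSO and 0.150 to 0.167 in PTPN21+VCR.

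**Figure D3:**
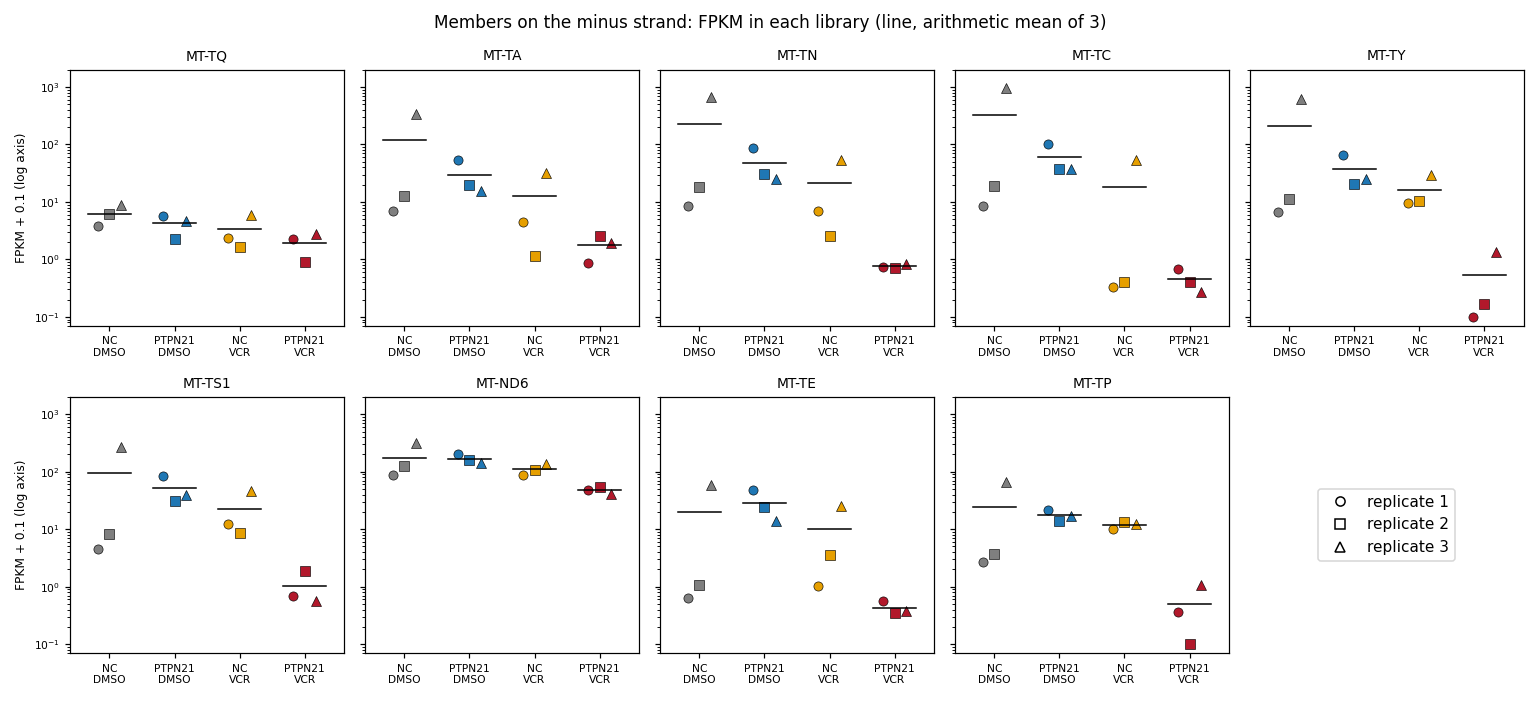
FPKM + 0.1 on a log axis for the 9 members of the minus strand in each library; each point is a library, its shape the replicate, and each line the arithmetic mean of 3. NC+DMSO replicate 3 was the highest library for each of the 9 members (942.5 FPKM for MT-TC), and apart from MT-TQ, MT-TA and MT-TC the 3 PTPN21+VCR libraries lay below all other libraries.

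NC+DMSO replicate 3 thus stood apart on the minus strand. It was also the highest library for the plus-strand tRNAs MT-TG, MT-TR, MT-TS2 and MT-TL2, at 18.77, 22.3, 17.98 and 19 FPKM. For MT-TF, MT-TW, MT-TK, MT-TH and MT-TT, also low, it was not. The tests are also given without this library. Then the same 19 members passed under vincristine in PTPN21 cells, and MT-TA, MT-TS2 and MT-TL2 passed as lower besides. In NC cells MT-RNR2 no longer passed, and MT-TP passed as higher by 1.65 (SE 0.301, adjusted p = 0.00265). The library was singled out on the minus-strand values themselves. Here and below, p-values of minus-strand members without it are therefore a description and not a separate test. Whether this library differed in RNA, preparation or cells was not tested.

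**Figure D4:**
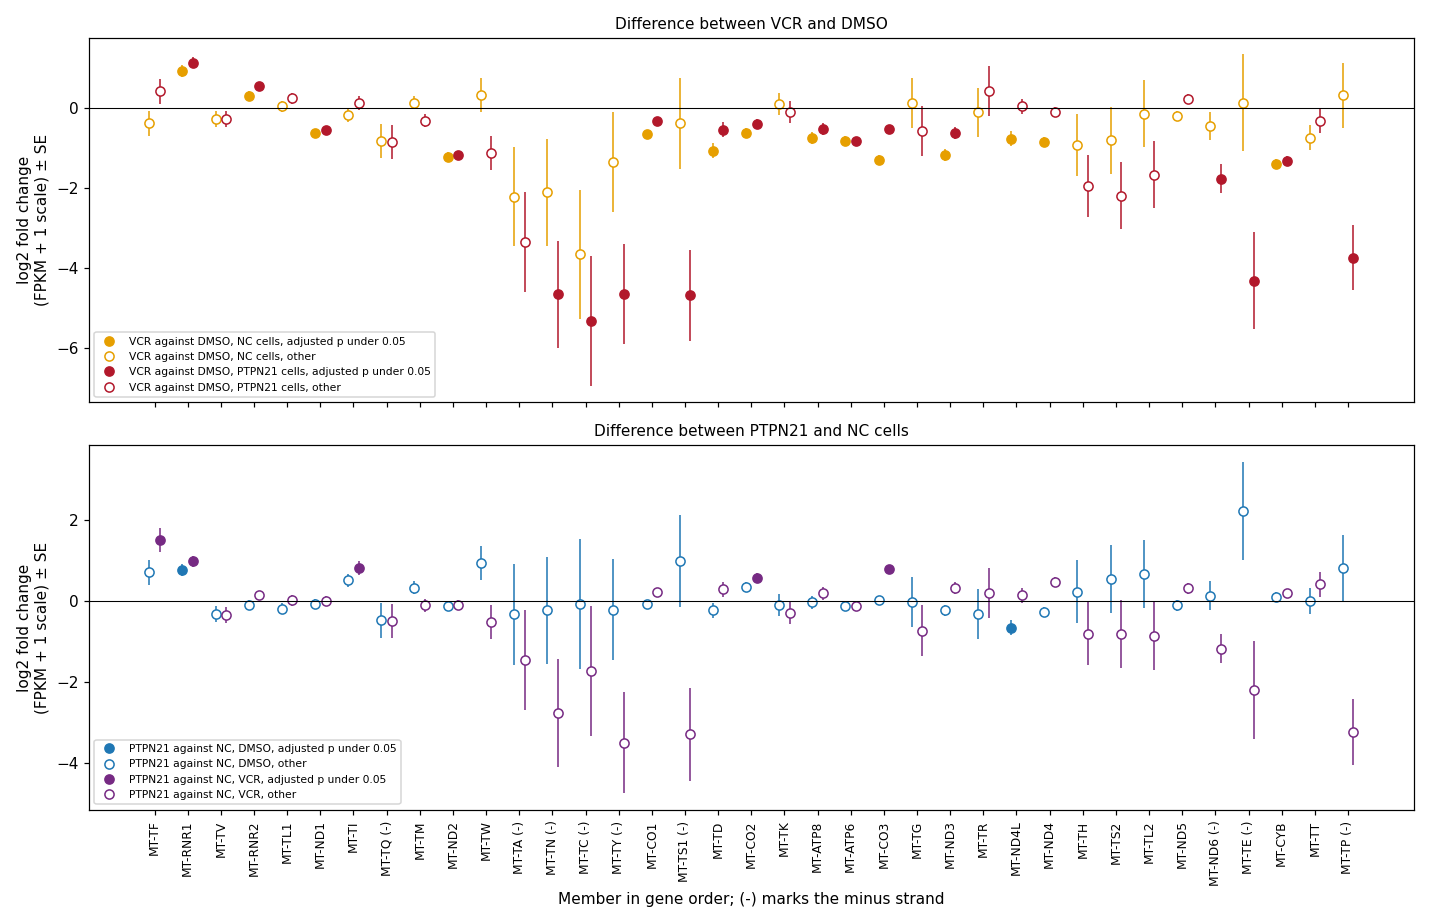
Log2 fold change on the FPKM + 1 scale with its SE for the 37 members in gene order, for vincristine against DMSO (top) and PTPN21 against NC cells (bottom); filled points passed an adjusted p of 0.05 and (-) marks the minus strand. In the top panel both rRNAs lie above 0 and the minus-strand tRNAs of PTPN21 cells reach -5.32 (MT-TC).

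Between the cell types fewer members differed. With DMSO 2 of 37 passed, 1 higher and 1 lower in PTPN21 cells, where 6.34% of all genes did (2.65% higher and 3.69% lower). MT-RNR1 was higher in PTPN21+DMSO by 0.77 ± 0.143 (adjusted p = 0.0156), in 20 of 24 alternatives, and not without PTPN21+DMSO replicate 1, where 0 members passed. MT-ND4L was at 3017, 2758 and 3021 FPKM in NC+DMSO and 1554, 2090 and 1955 in PTPN21+DMSO, without overlap, where 33.4% of all genes had none. Its log2 fold change was -0.66 ± 0.179 (adjusted p = 0.0488), and it passed in 9 of 24 alternatives. Among the alternatives that left out 1 library, it passed without NC+DMSO replicate 2 and without PTPN21+VCR replicate 2 or 3, and in no other. Neither passed without NC+DMSO replicate 3, where MT-TP alone passed, higher by 2.15 (SE 0.301, adjusted p = 0.00923). That library was singled out on values such as those of MT-TP, so this p-value is not a separate test. The median change of the 13 mRNAs was -0.08 and became 0.12 with median ratio scaling, so no direction is given for the class.

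With vincristine 5 members were higher in PTPN21 cells and none lower, where 1.82% of all genes passed (1% higher and 0.82% lower). When only these 2 groups were fitted, 5 members again passed, but 2 were higher (MT-CO3 and MT-RNR1) and 3 lower (MT-TY, MT-TP and the minus-strand mRNA MT-ND6). MT-TP also passed as lower with a pseudocount of 0.1 and with a mean of at least 5 FPKM, and these 3 and MT-TS1 passed without NC+DMSO replicate 3. MT-CO3 was at 1320, 1295 and 1535 FPKM in NC+VCR and 2460, 2355 and 2286 in PTPN21+VCR, a difference of 0.78 ± 0.114 (adjusted p = 0.00705) that passed in all 24 alternatives. MT-CO2, which carries the copper site that takes electrons from cytochrome c, was at 2321, 2648 and 2945 FPKM against 4003, 3873 and 3876, a difference of 0.58 ± 0.118 (adjusted p = 0.0328) that passed in 11 of 24 and not without PTPN21+DMSO replicate 1, 2 or 3. MT-CO1, the third complex IV mRNA, gave 0.23 and did not pass (adjusted p = 0.202).

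MT-RNR1 differed by 0.98 ± 0.143 (adjusted p = 0.00705) and also passed in all 24 alternatives. MT-TI, the isoleucine tRNA, was at 37.9, 37.5 and 49.0 FPKM in NC+VCR and 64.4, 83.5 and 73.2 in PTPN21+VCR, a difference of 0.82 ± 0.169 (adjusted p = 0.0353). MT-TF, the phenylalanine tRNA that opens the gene order before MT-RNR1, was at 2.24, 1.71 and 3.13 FPKM against 10.9, 8.66 and 6.27, a difference of 1.51 ± 0.307 (adjusted p = 0.0328). The groups did not overlap for either tRNA, and each passed in 13 of 24 alternatives. Without any 1 of the 3 PTPN21+VCR libraries, NC+VCR replicate 1 or 2, or PTPN21+DMSO replicate 3, only MT-CO3 and MT-RNR1 passed, 2 in place of 5. MT-TI was also higher with DMSO in all 3 PTPN21 libraries, at 57.6 to 77.2 FPKM against 38.7 to 53.4, without passing (0.51, adjusted p = 0.0864).

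All 8 minus-strand tRNAs had lower mean log2 values in PTPN21+VCR than in NC+VCR, with log2 differences from -3.50 to -0.49. Of these 0 passed in limma, 3 of them having an unadjusted p under 0.05, where 17.1% of all genes had such a p. MT-TP gave -3.24 (adjusted p = 0.0655), MT-TY -3.50 (adjusted p = 0.17) and MT-TS1 -3.30 (adjusted p = 0.155), and MT-ND6 gave -1.18 (adjusted p = 0.114). The groups did not overlap for 5 of the 8 minus-strand tRNAs (MT-TP, MT-TY, MT-TS1, MT-TN and MT-TE) and for MT-ND6. Among all genes 22.5% had no overlap. Without NC+DMSO replicate 3, which lies in neither group but enters the shared estimate of the spread, 9 members passed, adding MT-TP (adjusted p = 0.000434), MT-TY (0.00763), MT-TS1 (0.0132) and MT-ND6 (0.0132) as lower in PTPN21+VCR. Their log2 differences stayed the same and the SE became smaller, for MT-TP from 0.81 to 0.269. Because that library was singled out on the values of these members, the p-values are not a separate test. Since all PTPN21 libraries were deeper, depth and construct cannot be told apart.

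The interaction, which asks whether the vincristine change differed between PTPN21 and NC cells, passed for 0 of 37 members in limma, where 0.129% of all genes passed (0.0259% higher and 0.104% lower). At an unadjusted p under 0.05 there were 11 members, 7 of them mRNAs, where 14% of all genes had such a p. The lowest p was that of MT-CO3, with 0.76 ± 0.161 on the log2 scale (adjusted p = 0.0915). Among the tRNAs it was that of MT-TP, with -4.05 ± 1.15 (adjusted p = 0.189), and between the rRNAs that of MT-RNR2, with 0.23 ± 0.149 (adjusted p = 0.485).

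MT-CO3 passed the interaction with TPM scaling and when libraries were scaled to nuclear genes. Without NC+DMSO replicate 3 there were 5 members past the threshold. MT-CO3 was higher (0.89, adjusted p = 0.013), and MT-TP (-5.39, adjusted p = 0.000426), MT-TS1 (-6.04, adjusted p = 0.0151), MT-TY (-5.29, adjusted p = 0.0248) and MT-ND6 (-1.84, adjusted p = 0.0371) were lower. The calls on the minus strand in this comparison therefore rested on whether 1 library was kept, and that library was singled out on minus-strand values.

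Ratios between members within a library do not depend on how the library was scaled. MT-RNR2 over MT-RNR1 was 16.5 to 21.2 in NC+DMSO, 11.2 to 12.6 in NC+VCR, 9.04 to 11.5 in PTPN21+DMSO and 6.31 to 7.42 in PTPN21+VCR. The first and the last group stood apart from the middle pair, which overlapped. MT-ND2 over MT-RNR2 was 1.68 to 2.34 in NC+DMSO and 1.69 to 1.99 in PTPN21+DMSO, against 0.647 to 0.702 in NC+VCR and 0.550 to 0.586 in PTPN21+VCR, so that all vincristine libraries had less of this mRNA per large rRNA.

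MT-CO3 over MT-CYB, both plus-strand mRNAs, was 1.70 to 1.84 in NC+DMSO, 1.76 to 2.01 in NC+VCR, 1.55 to 1.75 in PTPN21+DMSO and 2.77 to 2.93 in PTPN21+VCR. The last group was above all other libraries. MT-ND4 over MT-CYB was 2.15 to 2.64 in NC+DMSO and 1.65 to 2 in PTPN21+DMSO, and 3.22 to 3.71 in NC+VCR and 3.72 to 4.55 in PTPN21+VCR, higher in every vincristine library. Thus plus-strand mRNAs changed unequally in the same libraries. Across the 12 plus-strand mRNAs the change under vincristine had a Spearman correlation with gene order of -0.29 in NC cells and 0.22 in PTPN21 cells, given as a description over genes of 1 chromosome.

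**Figure D5:**
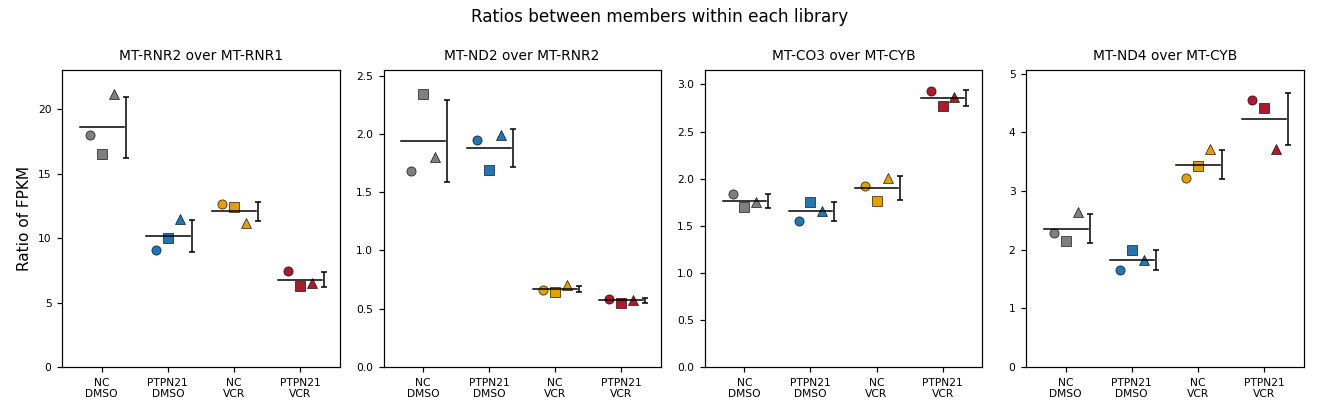
Ratios of FPKM between pairs of members within each library (linear axes from 0); points are libraries, their shape the replicate, lines the mean of 3 and error bars the SD. MT-RNR2 over MT-RNR1 was 16.5 to 21.2 in NC+DMSO and 6.31 to 7.42 in PTPN21+VCR, and MT-CO3 over MT-CYB reached 2.77 to 2.93 in PTPN21+VCR alone.

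Nuclear genes that serve these RNAs were described by fixed lists, against the same backgrounds. Of all genes tested, 28.3% fell and 7.91% rose under vincristine in NC cells, and 19.3% fell and 9.22% rose in PTPN21 cells. Of 12 tested genes for transcription of mitochondrial DNA, 7 fell and 1 rose under vincristine in NC cells, and 5 fell in PTPN21 cells. The largest falls in NC cells were MTERF4, a factor of ribosome biogenesis in the organelle, at -2.22 (adjusted p = 0.0027) and MTERF2 at -1.20 (adjusted p = 0.00678), and TEFM, the elongation factor of POLRMT, rose by 1.35 (adjusted p = 0.0144). In PTPN21 cells they were MTERF2 at -1.10 (adjusted p = 0.0132) and PPRC1, a coactivator of mitochondrial biogenesis genes, at -0.89 (adjusted p = 0.0241). Of 16 genes of DNA maintenance, 5 fell and 1 rose in NC cells, and 3 fell and 1 rose in PTPN21 cells. The falls were near the shares of all genes in both cell types. TWNK, the mitochondrial DNA helicase, was among them, at -1.85 (adjusted p = 0.000733) and -1.05 (adjusted p = 0.0211).

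Of 20 genes of RNA processing and decay, 8 fell under vincristine in NC cells and 5 in PTPN21 cells, and none rose. MTPAP, the poly(A) polymerase, fell by 1.05 (adjusted p = 0.017) and 1.07 (adjusted p = 0.019). SLIRP, which with LRPPRC stabilizes mitochondrial mRNAs, was the 1 gene of this list that passed between the cell types. It was at 192.2 ± 18.8 FPKM (SD, n = 3) in NC+DMSO, 174.9 ± 43.7 in NC+VCR, 356.5 ± 31.8 in PTPN21+DMSO and 481.5 ± 16.7 in PTPN21+VCR, higher in PTPN21 cells by 0.89 (adjusted p = 0.0124 in limma) with DMSO and 1.48 (adjusted p = 0.00119) with vincristine.

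Of 28 genes for tRNA modification and charging, 10 fell in NC cells, where 28.3% of all genes fell. In PTPN21 cells 6 fell and 2 rose, near the shares of all genes (19.3% lower and 9.22% higher). AARS2, the mitochondrial alanyl-tRNA synthetase, was among those that fell, at -1.27 (adjusted p = 0.00192) and -1.24 (adjusted p = 0.0027). Of 16 genes for rRNA modification and ribosome assembly, 6 and 5 fell. MRM2, which methylates the large rRNA, was at 11.8 ± 2.71 FPKM (SD, n = 3) in NC+DMSO, 12.4 ± 3.24 in PTPN21+DMSO and 6.10 ± 3.61 in PTPN21+VCR and was near 0 in NC+VCR, a fall of 3.65 (adjusted p = 3.03e-05 in limma) in NC cells and a level higher by 2.67 (adjusted p = 0.00529) in PTPN21+VCR than in NC+VCR. NGRN, an assembly factor of the large subunit, passed the interaction (-1.22, adjusted p = 0.0264).

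Of 13 translation factors, 7 fell in NC cells, and 6 fell and 1 rose in PTPN21 cells, among them TACO1, an activator of MT-CO1 translation, at -1.35 (adjusted p = 0.000413) and -1.10 (adjusted p = 0.00181). Of 78 mitochondrial ribosomal proteins, 41 fell and 2 rose in NC cells and 41 fell and 1 rose in PTPN21 cells. Both rRNAs of the same ribosome passed as higher, though MT-RNR2 in NC cells did so in 9 of 24 alternatives. MRPL12 fell by 1.67 (adjusted p = 1.97e-05) in NC cells and MRPS9 by 1.5 (adjusted p = 2.24e-06) in PTPN21 cells, and MRPL51 rose by 0.62 in both (adjusted p = 0.00381 and 0.00471).

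Copies of mitochondrial genes in the nuclear genome closely resemble the members, so reads may be split between them. Of 408 such genes, picked by their names from the deposited values, 8 passed the filter on low values. Under vincristine 6 of these fell in NC cells and 5 in PTPN21 cells. The most abundant, MTATP6P1, was at 1112 to 1211 FPKM in NC+DMSO, 462.1 to 536.3 in NC+VCR, 585.1 to 1070 in PTPN21+DMSO and 404.7 to 635 in PTPN21+VCR, and fell by 1.26 (adjusted p = 0.000632) and 0.61 (adjusted p = 0.0369). Adding the FPKM of the copy to that of MT-ND1, MT-ND2, MT-CO1, MT-ATP6, MT-CO3 and MT-ND4 changed none of the 5 counts of members that passed.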

How the data were processed

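RNA of 12 libraries, 3 in each of 4 groups, was sequenced and processed by an external company, and the authors deposited FPKM values per gene. The submitters' processing notes name fastp, Bowtie2 and the build mm10 without saying what each was used for, although the table lists human Ensembl genes. The study's methods call the assay digital gene expression tag profiling, although FPKM scale values to gene length. The counting program, the annotation, strandedness and any poly(A) selection or rRNA depletion are not given in the sources used here. Each library was assigned to its group by its label. Genes were matched to GENCODE release 29 (58453 of 60671, 96.3%) for positions, and anticodons were located with the vertebrate mitochondrial code.

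The deposited FPKM were transformed to log2(FPKM + 1), which understates changes of low genes. A mean of at least 1 FPKM was required, which left 11591 genes, all 37 members among them. These were tested with limma 3.58.1 in R 4.3.3, with an intensity trend, in one model of 4 group means. P-values of 5 comparisons, each with 3 libraries per group, were adjusted over all genes tested by the Benjamini-Hochberg method, with a threshold of 0.05. The fit and the depth estimate were tested on simulated data. Depth was estimated from 9172 single-exon genes over 500 bases, of whose low values 45.2% to 52.3% lay within 0.1 of a whole step, against 20% by chance, so it is approximate.

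The members, the nuclear lists and the tests were chosen with earlier results of these data known. Every member is accounted for. Statistics are given for at most the 6 largest changes past the threshold per RNA class and comparison (the lowest adjusted p where none passed), and for at most 2 rises and 2 falls per nuclear list. Some members outside that rule were named after their values were seen. Alternatives were other pseudocounts, filters, scalings and limma settings, a replicate block, only the groups compared, omission of each library and, added after seeing the data, the sum of a member and its nuclear copy. Plots used Python 3.11.15 with matplotlib 3.10.9.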

Additional observations from a re-analysis of the deposited data

How the results depend on the processing

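Of the values of named members, 351 of those that leave out 1 library and 368 of those with other settings kept their direction and their side of the threshold, 55 and 35 no longer passed, 2 and 2 newly passed, and 0 reversed. With vincristine in NC cells the 14 members that passed became 9 with median ratio scaling and 13 to 15 when 1 library was left out. With vincristine in PTPN21 cells the 19 became 11 with no filter on low values, 14 with median ratio scaling and 15 with limma without the trend. They became 18 with quantile normalization, 20 with a pseudocount of 0.1 and 24 with only the groups compared. When 1 library was left out they became 12 to 22, the 12 without PTPN21+DMSO replicate 1 and the 22 without NC+DMSO replicate 3. Between PTPN21+DMSO and NC+DMSO the 2 became 1 with a pseudocount of 0.1, median ratio scaling, limma without the trend or a replicate block, 0 with no filter or only the groups compared, 4 when scaled to nuclear genes, 5 with quantile normalization, and 0 to 2 when 1 library was left out. Between PTPN21+VCR and NC+VCR the 5 became 2 with no filter, limma without the trend or a replicate block, 3 with median ratio scaling, 5 with only the groups compared, 2 of them shared, and 2 to 9 when 1 library was left out, the 9 being without NC+DMSO replicate 3 and the 2 without PTPN21+DMSO replicate 3. For the interaction the 0 became 1 with TPM scaling or scaling to nuclear genes, and 0 to 5. The cause of these shifts was not tested. Replicate numbers did not pair the libraries: 18 pairs of equal number had correlations of -0.145 to 0.0583, 0 of them above 0.1. With the replicate block the counts were 13, 19, 1, 2 and 0. Precision is limited by 3 libraries per group and, for the minus-strand tRNAs, by values near 0 whose depth is not known.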
